A study of Mus musculus with 5 samples.

Results

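The 10 genes described here encode structural proteins of basement membranes, the thin sheets of matrix that underlie endothelium, epithelium and glial endfeet. They were chosen by name as Col4a1, Col4a2, Lamb1, Lamb2, Lamc1, Nid1, Hspg2, Agrn, Col18a1 and Fn1, and all 10 were among the 18193 genes measured. They were followed in RNA of whole mouse retinas on 5 Affymetrix whole-genome arrays, each array holding 1 pool. The pools of diabetic replicates 1 and 2 came from 4 retinas (2 mice) each, taken 5 weeks into diabetes caused by streptozotocin, which kills the beta cells of the pancreas. For diabetic replicate 3, 6 retinas (3 mice) were pooled after 3 to 4 weeks of experimental diabetes, with the inducing agent not named. Each of the 2 control pools held 4 retinas of 2 untreated mice matched in age, with normal blood glucose. The labels state no strain, sex or age. A pool hides the spread between mice, so a p-value here compares pools.

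A basement membrane is built from a laminin network at the cell surface and a collagen IV network, which nidogen and the heparan sulfate proteoglycans perlecan, agrin and collagen XVIII join and decorate. In the retina such sheets surround the capillaries, form the inner limiting membrane on the endfeet of Muller glia, and contribute to Bruch's membrane behind the pigment epithelium. Thickening of the capillary basement membrane is a well known lesion of long-standing diabetes in the human retina. In whole tissue, fewer cells of a type and less RNA per cell cannot be told apart.

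Col4a1 and Col4a2 lie head to head in the mouse genome, and their promoters are shown because the windows around their start sites overlap. RefSeq windows of 250 bases before to 50 bases after the start (build GRCm38.p6) were found for 8 of the 10 genes. The Col4a1 window lies on the minus strand at chr8:11312777-11313076 and the Col4a2 window on the plus strand at chr8:11312555-11312854. The annotated start sites are 21 bases apart. In the first pair of sequences, capitals mark the 78 bases that both windows hold, read 5' to 3' on the strand of each gene. One of the 2 Agrn windows, on the minus strand at chr4:156197439-156197738, is shown as that of the other gene with higher values in every diabetic pool. Its capitals mark the motif GGGCGG on either strand.
Col4a1: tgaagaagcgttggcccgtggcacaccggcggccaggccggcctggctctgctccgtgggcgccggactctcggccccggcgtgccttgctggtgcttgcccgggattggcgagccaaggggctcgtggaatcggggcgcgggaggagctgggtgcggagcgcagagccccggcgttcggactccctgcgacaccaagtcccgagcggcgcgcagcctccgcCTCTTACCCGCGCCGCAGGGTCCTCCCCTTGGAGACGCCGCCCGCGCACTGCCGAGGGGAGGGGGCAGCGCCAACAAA
Col4a2: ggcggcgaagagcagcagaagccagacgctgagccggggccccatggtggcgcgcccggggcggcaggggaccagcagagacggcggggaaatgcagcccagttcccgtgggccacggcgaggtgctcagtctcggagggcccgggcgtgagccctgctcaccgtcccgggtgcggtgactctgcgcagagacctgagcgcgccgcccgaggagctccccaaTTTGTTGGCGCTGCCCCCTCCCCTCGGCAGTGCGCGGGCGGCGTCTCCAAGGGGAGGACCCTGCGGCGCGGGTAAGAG
Agrn: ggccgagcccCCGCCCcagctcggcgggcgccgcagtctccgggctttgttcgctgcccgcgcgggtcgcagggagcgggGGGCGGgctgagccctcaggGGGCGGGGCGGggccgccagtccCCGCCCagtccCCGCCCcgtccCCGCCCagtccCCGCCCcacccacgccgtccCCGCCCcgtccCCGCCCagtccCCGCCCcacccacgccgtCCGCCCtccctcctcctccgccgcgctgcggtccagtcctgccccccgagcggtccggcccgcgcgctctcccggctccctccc
The motif GGGCGG, the core of the GC box, occurred 12 times in this Agrn window on both strands together, with overlapping matches counted. The other Agrn window, not shown, held the motif 2 times. Of all 32851 windows of this length, 35.7% held the motif at least once and 0.0213% held it 12 times or more. The motif occurred once in the shared bases of the collagen IV pair, and 8 of the 10 windows of the basement membrane genes held it (Agrn and Col18a1 have 2 windows each). The motif CCAAT, searched on both strands, lay in 5 of these 10 windows and in 37.4% of all windows. The motif TATAAA lay in 0 of the 10 and in 13.6% of all windows. A match is a description of letters and does not show that a factor binds.

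Diabetic pools had higher signals of the collagen IV chain gene Col4a1 and of Agrn, and lower signals of the laminin chain genes Lamc1 and Lamb2, in every diabetic pool compared with both controls. For Lamc1 this held for the brighter probe set, while averaging its probe sets gave overlapping groups and a difference of 0.02. Nid1, the nidogen gene, was also lower in every diabetic pool, but its groups overlapped after quantile normalization or median centring. No difference passed the test across all genes. The array values are deposited signals on a linear scale, and tests used log2(signal + 120.6), the pseudocount being the 20th percentile of all signals. For dim genes a difference on this scale is smaller than the true change. The probe set of highest mean stood for its gene. The limma test took the 10916 genes, or 60%, of highest mean level, and 8 of the 10 basement membrane genes were among them, while Lamb2 and Nid1 lay below that filter. After Benjamini-Hochberg adjustment 0 of the 8 passed 0.05, with 0 of all 10916 genes (0%). At an unadjusted p under 0.05 there were 2 of the 8, Col4a1 and Agrn, against 3.39% of all tested genes. Diabetic and control arrays separated without overlap, in either direction, in 18.1% of all tested genes, so separation alone does not set a gene apart. This share leaves out genes below the filter, and none was worked out for the set that holds Lamb2 and Nid1.

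**Figure D1:**
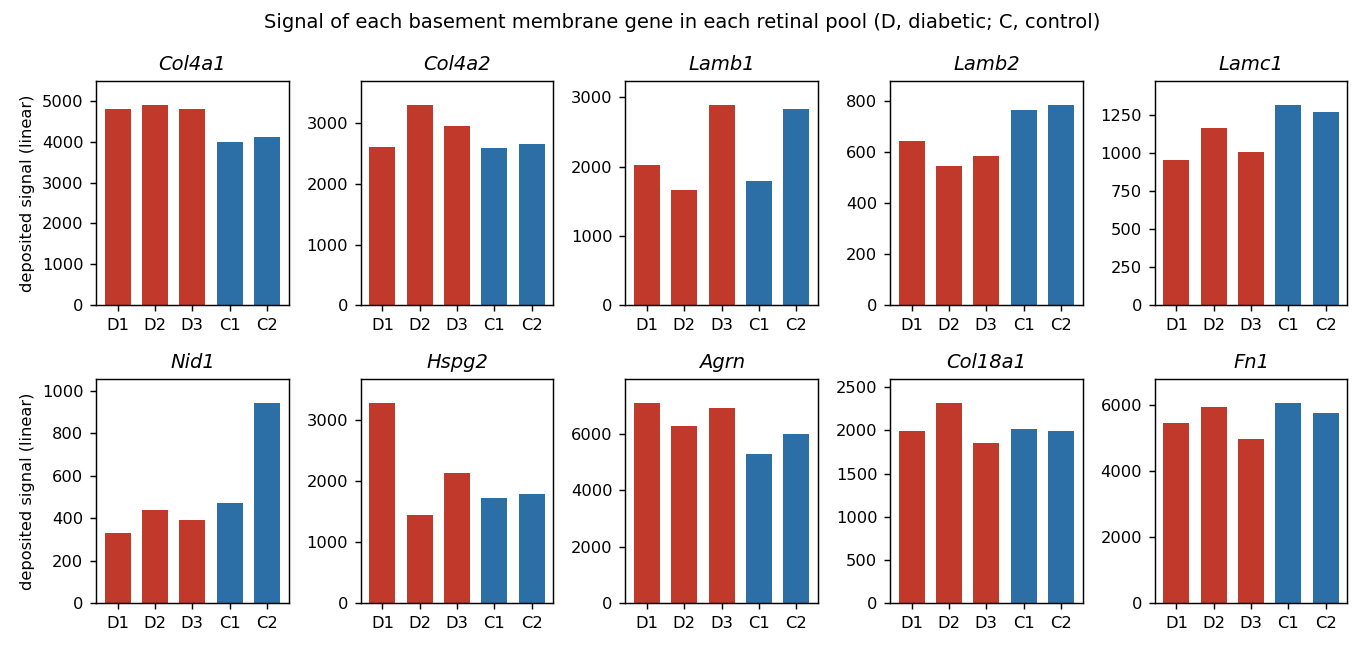
Deposited signal on a linear axis starting at 0 for each of the 10 genes (the probe set of highest mean), with 3 diabetic pools (D1 to D3, red) left of 2 control pools (C1 and C2, blue). In all 3 diabetic pools Col4a1 and Agrn exceed both controls, Lamb2, Lamc1 and Nid1 are lower, and Lamb1 is high in diabetic replicate 3 and control replicate 2.

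Col4a1 encodes a chain of the most widespread collagen IV molecule. Its brighter probe set had signals of 4793, 4898 and 4801 in diabetic replicates 1 to 3, against 4006 and 4121 in control replicates 1 and 2. All 3 diabetic pools lay above both controls, and the pools of each group lay close together. On the log2 scale Col4a1 averaged 12.27 ± 0.02 in diabetic pools (SD, n = 3) and 12.03 ± 0.03 in controls (SD, n = 2). The difference was 0.24 (SE 0.10, 95% interval 0.03 to 0.46, limma unadjusted p = 0.0327, adjusted p = 0.9995), or 1.19 times in mean signal. A second probe set, dimmer but above the filter, gave signals of 1840, 1396 and 1781 in diabetic pools, against 1055 and 1216 in control pools. It separated the groups in the same direction, by 0.51 on the log2 scale (SE 0.18, limma adjusted p = 0.9999 over all probe sets). With single arrays left out the Col4a1 difference lay between 0.22 and 0.26.

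Col4a2 encodes the partner chain in the same molecule and had a single probe set. Its signals were 2613, 3301 and 2964 in diabetic replicates 1 to 3, against 2586 and 2652 in the controls. Diabetic replicate 1 lay between the controls, so the groups overlapped. The log2 difference was 0.16 (SE 0.13, 95% interval -0.13 to 0.46, adjusted p = 0.9995). Leaving out diabetic replicate 2, the highest pool, gave 0.08, and leaving out diabetic replicate 1 gave 0.25.

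The 5 tested genes outside the list whose values followed the average of the collagen IV pair most closely were Scap, Rnf185, Lonrf3, Arhgef15 and Dlg5. Likeness was the root mean square distance from the mean log2 profile of Col4a1 and Col4a2 over the 5 arrays, each gene centred on its mean. It ran from 0.0175 to 0.0237 for these genes, against a median of 0.155 over all tested genes. Col4a1 and Col4a2 themselves lay at 0.0506, ranks 104 and 105. Their equal distance is fixed by the calculation, since the reference is their own average. Scap, which escorts the sterol-sensing transcription factors, had signals of 12411, 14119 and 12900 in diabetic pools, against 11302 and 11341 in control pools. Arhgef15, a guanine nucleotide exchange factor, had 1379, 1576 and 1489 in diabetic pools, against 1271 and 1242 in control pools. The reference profile is itself raised in diabetes, and these 5 genes were picked for their closeness to it. Their group differences therefore follow from that choice and are not a separate result. Among the tested basement membrane genes outside the pair, which leave out Lamb2 and Nid1, Col18a1 was the nearest at 0.114, followed by Agrn at 0.124, ranks 2533 and 3229 of 10916. Hspg2 was the farthest at 0.416. This distance is also small for a gene that varies little. Col18a1, with a difference of 0.03 and overlapping groups, was therefore not shown to follow the pair, nor to follow it more closely than Agrn.

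The laminin genes encode chains of the heterotrimers that bind cell surface receptors, Lamc1 the gamma chain shared by most of them. The brighter Lamc1 probe set had signals of 954, 1167 and 1010.2 in diabetic replicates 1 to 3, against 1318 and 1273 in the controls. All 3 diabetic pools lay below both controls. The Lamc1 log2 difference was -0.29 (SE 0.17, 95% interval -0.67 to 0.09, adjusted p = 0.9995), or 0.806 times in mean signal. With single arrays left out it lay between -0.36 and -0.23. The other Lamc1 probe set was dim and scattered, with 366, 99.1 and 211 in diabetic pools, against 14.6 and 382 in control pools, and averaging both probe sets gave a difference of 0.02.

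Lamb2 encodes a beta chain found in the retina and at the neuromuscular synapse. It had 1 probe set, with signals of 646, 548 and 587 in diabetic replicates 1 to 3, against 766 and 786 in the controls. The groups did not overlap. In the fit without the filter, which covers 18193 genes, the Lamb2 difference was -0.33 (SE 0.22, 95% interval -0.85 to 0.18, limma adjusted p = 0.9997), or 0.765 times in mean signal. With single arrays left out it lay between -0.38 and -0.28.

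Lamb1 encodes the other common beta chain and divided the arrays across the groups. Its brightest probe set had 2030.2, 1660.4 and 2889 in diabetic replicates 1 to 3, against 1797 and 2830.0 in control replicates 1 and 2. Diabetic replicate 3 and control replicate 2 were the high arrays, and a second probe set above the filter had its high values in the same arrays, at 1012 and 1143. The log2 difference between the groups was -0.07 (SE 0.25, adjusted p = 0.9995), with 0.24 when control replicate 2 was left out and -0.39 when control replicate 1 was. Diabetic replicate 3 lay 0.03 above control replicate 2, and the average of diabetic replicates 1 and 2 lay 0.03 above control replicate 1. That average hides a spread, since diabetic replicate 1 lay above control replicate 1 and diabetic replicate 2 below it. Skeletal muscle genes were high in the same arrays. The summed signal of the 16 measured genes of that list was 12888, 12106 and 111809 in diabetic replicates 1 to 3, against 12667 and 72435 in control replicates 1 and 2. Myl1, a fast muscle myosin light chain, had 16671 in diabetic replicate 3, against 8889 in control replicate 2, and 27.6 to 152 in the other arrays. The part of muscle tissue in the Lamb1 values was not tested.

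Nid1 encodes nidogen, which links laminin to collagen IV. Its brightest probe set, still below the filter, had 329, 440 and 393 in diabetic replicates 1 to 3, against 472 and 945 in the controls. The groups did not overlap on the deposited scale, but they overlapped after quantile normalization, after median centring and in the mean over probe sets, with control replicate 1 close to the diabetic pools. In the fit without the filter the difference was -0.65 (SE 0.32, 95% interval -1.40 to 0.10, limma adjusted p = 0.9997). Its size rested on control replicate 2, since leaving out that array gave -0.23 and leaving out control replicate 1 gave -1.07. The 2 other Nid1 probe sets lay between 12.2 and 157 in all arrays and differed in opposite directions, by -0.32 and 0.38.

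Of the heparan sulfate proteoglycans, agrin binds laminin and dystroglycan and organises the neuromuscular synapse. Agrn had signals of 7105, 6285 and 6919 in diabetic replicates 1 to 3, against 5292 and 5988 in the controls. All 3 diabetic pools lay above both controls, with diabetic replicate 2 nearest to them. On the log2 scale Agrn averaged 12.75 ± 0.09 in diabetic pools (SD, n = 3) and 12.49 ± 0.12 in controls (SD, n = 2). The difference was 0.26 (SE 0.10, 95% interval 0.02 to 0.50, limma unadjusted p = 0.0357, adjusted p = 0.9995), or 1.20 times in mean signal. Leaving out control replicate 1 gave 0.17 and leaving out control replicate 2 gave 0.35. The other Agrn probe set was at 29.0 or below in every array, and averaging both gave a difference of 0.14.

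Hspg2 encodes perlecan, the large proteoglycan of vascular basement membranes, and varied most among the diabetic pools. Its brighter probe set had 3288, 1437 and 2135 in diabetic replicates 1 to 3, against 1717 and 1796 in the controls. Diabetic replicate 1 was the highest and diabetic replicate 2 the lowest of all 5 arrays. The difference was 0.29 (SE 0.28, 95% interval -0.35 to 0.92, adjusted p = 0.9995), which became -0.00178 when diabetic replicate 1 was left out and 0.56 when diabetic replicate 2 was. A dim Hspg2 probe set differed the other way, with 196, 248 and 192 in diabetic pools, against 289 and 360.5 in control pools. Averaging both probe sets gave a difference of -0.07.

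Col18a1 encodes collagen XVIII, the precursor of endostatin. Its brighter probe set had 1988, 2321 and 1857 in diabetic replicates 1 to 3, against 2019 and 1990.0 in the controls. The groups overlapped, with a difference of 0.03 (SE 0.14, 95% interval -0.29 to 0.35, adjusted p = 0.9995). Leaving out diabetic replicate 2 gave -0.06 and leaving out diabetic replicate 3 gave 0.09. A second probe set above the filter had 1086, 741 and 1249 in diabetic pools, against 684 and 1107 in control pools, a difference of 0.18 (SE 0.29) with overlapping groups.

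Fn1 encodes fibronectin, a soluble and matrix glycoprotein that binds integrins. Its brighter probe set had 5444, 5921 and 4962 in diabetic replicates 1 to 3, against 6055 and 5740.4 in the controls. Diabetic replicate 2 lay between the controls and the other 2 diabetic pools below both. The difference was -0.12 (SE 0.11, 95% interval -0.36 to 0.13, adjusted p = 0.9995), with -0.18 when diabetic replicate 2 was left out and -0.05 when diabetic replicate 3 was. The second Fn1 probe set differed by -0.13 (SE 0.19).

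**Figure D2:**
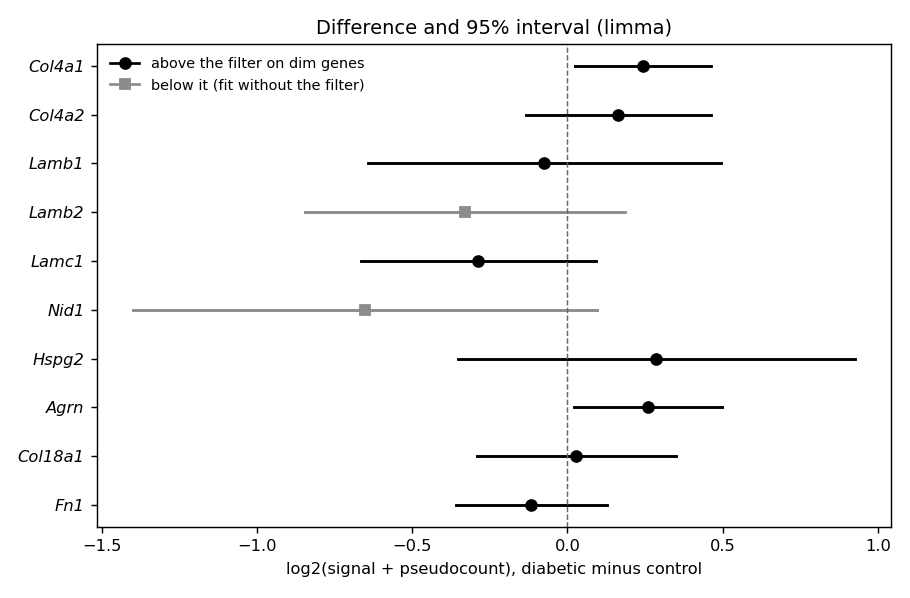
Log2 difference, diabetic minus control, with its 95% interval from limma for the 10 genes ordered by role, where black circles are genes above the filter and grey squares the 2 below it, taken from the fit without the filter. The intervals of Col4a1 (0.03 to 0.46) and Agrn (0.02 to 0.50) lie above 0 before adjustment and the other 8 include 0.

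Over the 8 tested genes the groups did not overlap in 2 with higher values in diabetic pools, Col4a1 and Agrn, where 9.99% of all tested genes did so. They did not overlap in 1 with lower values, Lamc1, against 8.15% of all tested genes. The median difference of the 8 was 0.10, with 5 above 0 and 3 below, beside a median of 0.00602 over all tested genes. The median absolute difference was 0.20 for the 8 and 0.08 over all tested genes. It ran from 0.06 to 0.17 in the 5 lists of related genes below, and from 0.06 to 1.04 in the cell type lists. The 10 genes were chosen with earlier results of these data known. The genes did not share a direction. Relative to each gene's mean, the collagen IV chains averaged -0.00742, 0.17 and 0.08 in diabetic replicates 1 to 3, against -0.14 and -0.10 in the controls. Lamb2 and Lamc1 averaged -0.13, -0.09 and -0.15 in diabetic pools, against 0.19 and 0.18 in control pools. Within each array, the mean log2 level of Col4a1 and Col4a2 minus that of Lamb2 and Lamc1 stood 0.43, 0.57 and 0.54 above the control mean in diabetic replicates 1 to 3, against -0.02 and 0.02 in the controls. With Lamb1 among the laminin chains these values were 0.37, 0.62 and 0.31 in diabetic pools, against 0.08 and -0.08 in control pools. These groupings were made after the values were seen and carry no test. Lamb2 and Lamc1 had already been seen lower, and Col4a1 higher, in every diabetic pool. The separation in the contrast without Lamb1 therefore follows from the choice of genes.

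**Figure D3:**
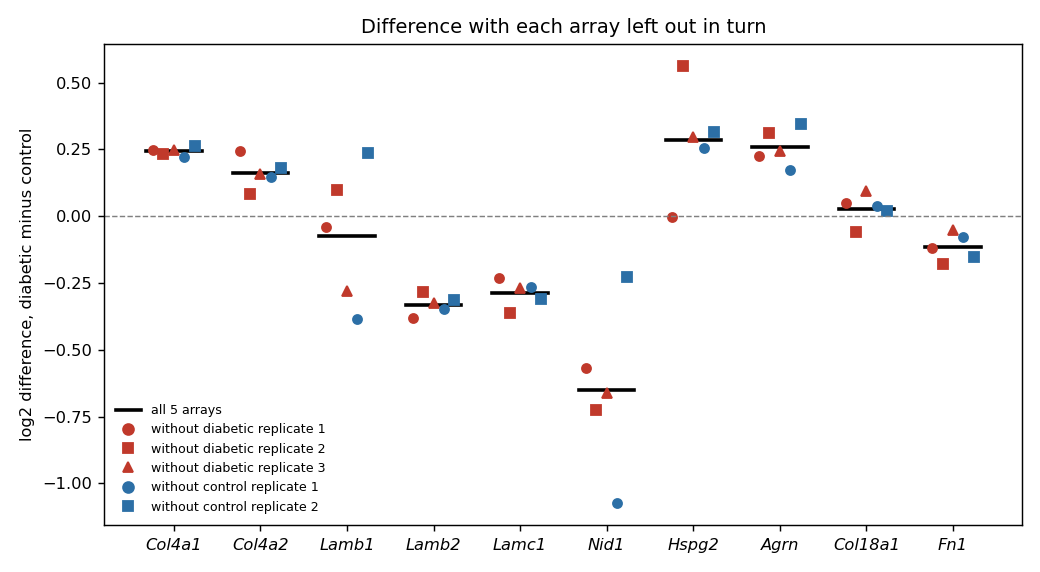
Log2 difference, diabetic minus control, of each gene with all 5 arrays (black bar) and with 1 array left out (red symbols for a diabetic and blue for a control array). Col4a1 stays between 0.22 and 0.26 and Lamb2 between -0.38 and -0.28, while Lamb1, Hspg2 and Col18a1 cross 0 and Nid1 spans -1.07 to -0.23.

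The 10 genes had 21 probe sets, 12 of them above the filter. Among these 12, the groups did not overlap in 3 with higher values in diabetic pools, 2 of Col4a1 and 1 of Agrn, against 8.43% of all 22087 probe sets above it. They did not overlap in 1 with lower values, of Lamc1, against 8.63%. In the 4 genes with more than 1 probe set above the filter, Col4a1, Col18a1, Lamb1 and Fn1, the probe sets of each gene differed in the same direction. Directions parted where dim probe sets were set beside brighter ones, in Lamc1, Hspg2 and Lamb1, and among the 3 dim probe sets of Nid1.

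**Figure D4:**
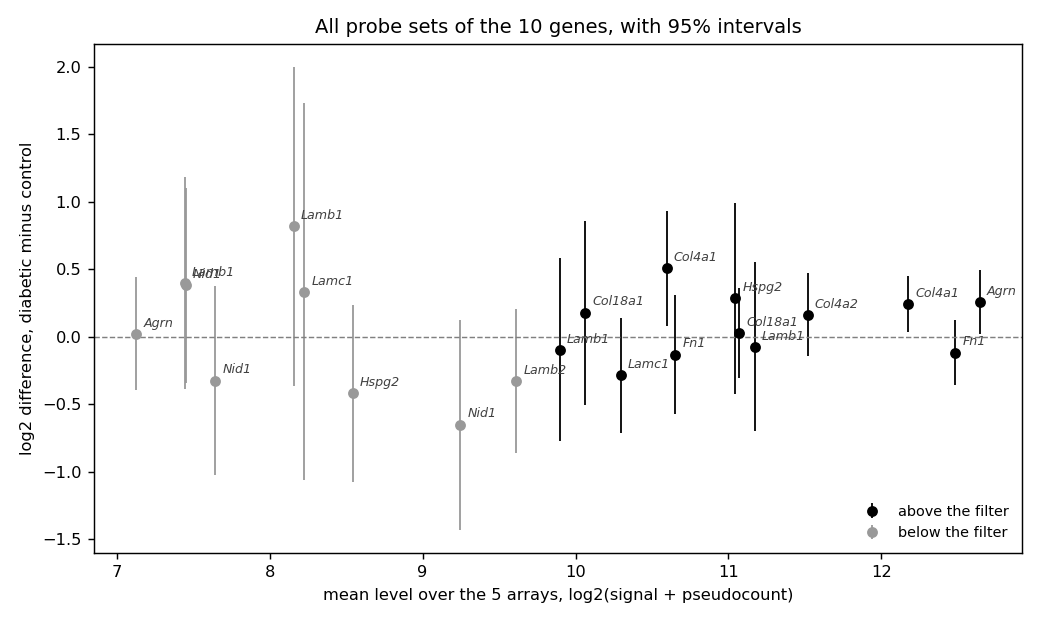
All 21 probe sets of the 10 genes, with the mean level over the 5 arrays on the x axis (log2 scale) and the log2 difference, diabetic minus control, with its 95% interval on the y axis. The 12 probe sets above the filter (black) differ by -0.29 to 0.51, and the 9 below it (grey) by -0.65 to 0.82.

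Some arrays carried quality or tissue signals that touch these values. The beta-actin control probe sets had a 3' over 5' ratio of 4.32 in diabetic replicate 2, against 2.01 and 2.43 in the other diabetic arrays and 2.52 and 2.71 in the control arrays. For Gapdh this ratio differed less, at 0.90 in diabetic replicate 2, against 0.78 and 0.84 in the other diabetic arrays and 0.82 and 0.81 in the control arrays. Diabetic replicate 3 and control replicate 2 held the muscle signal. Leaving out these last 2 arrays together, which leaves 1 control, gave 0.27 for Col4a1, 0.33 for Agrn, -0.29 for Lamc1, -0.31 for Lamb2 and -0.24 for Nid1. The photoreceptor gene Sag had 111638 to 140068 in diabetic pools, against 108659 and 133152 in control pools, among the brightest of its list, all of whose 11 measured genes were tested.

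Cell type markers were summed over each list, in deposited signal. The 18 genes of endothelial cells summed to 59350.2, 62821 and 61977 in diabetic replicates 1 to 3, against 57726 and 59063 in the controls, with 8 of 11 tested members higher. The separation of these sums rested on Slc2a1, the brightest gene: without it, a choice made after seeing the data, the 17 others summed to 30844, 26561 and 30545 in diabetic pools, against 29293 and 28564 in control pools. Diabetic replicate 2 then lay below both controls. Ramp2 and Plvap of this list, picked after their values were seen, were lower in all diabetic pools. The 2 brightest endothelial genes, the receptor gene Kdr and the glucose transporter gene Slc2a1, both differed by 0.12 with overlapping groups. Pericyte and smooth muscle genes summed to 82659 to 90053 in diabetic pools, against 86742 and 88009 in control pools, and those of Muller glia to 445195 to 459962 in diabetic pools, against 465393 and 430159 in control pools. Pigment epithelium genes, all 10 tested members lower, summed to 98659, 128338 and 92129 in diabetic pools, against 147250.2 and 191661 in control pools, in the direction of Lamc1, Lamb2 and Nid1. Genes of melanosomes summed to 23636, 3531 and 15094 in diabetic pools, against 5966 and 20269 in control pools. Connective tissue genes summed to 24050, 18256 and 20151 in diabetic pools, against 16759 and 28369 in control pools. Diabetic replicate 1 and control replicate 2 had the top sums of both lists. Astrocyte genes summed to 63452 to 66366 in diabetic pools, against 62456 and 63676 in control pools, lens genes to 10272 to 13351 in diabetic pools, against 11484 and 11000.2 in control pools, and leukocyte and microglia genes to 6272 to 8392 in diabetic pools, against 7939 and 9922 in control pools. The part of any cell type in the values of the 10 genes was not tested.

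Of 31 other basement membrane components 13 were tested, 5 with higher and 8 with lower means in diabetic pools, and 0 passed (median -0.07). Their 3 genes of smallest p were Col4a4, Sparc and Col4a3. Col4a4, a chain of a more restricted collagen IV molecule, had 1602, 1353 and 1113 in diabetic replicates 1 to 3, against 1646 and 2193 in the controls. All 3 diabetic pools lay below both controls, the opposite of Col4a1, with a difference of -0.47 (SE 0.19, adjusted p = 0.9995). Col4a3, its partner chain, differed by -0.32 (SE 0.20), with groups that overlapped. Sparc, a secreted protein that binds collagen IV, had 15930.3, 17011 and 15686 in diabetic pools, against 14097 and 14673 in control pools, a difference of 0.17 (SE 0.08). Col4a5 differed by 0.18 (SE 0.12) and was also higher in every diabetic pool; it was picked after its values were seen. The laminin alpha chain gene Lama5 was the only alpha chain above the filter, at -0.07 (SE 0.17).

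Of 25 genes for receptors of basement membrane proteins 14 were tested, 7 with higher and 7 with lower means in diabetic pools, and 0 passed (median -0.01). Itgb8, an integrin beta subunit, had 5955, 7672 and 7035 in diabetic replicates 1 to 3, against 9808 and 14590 in the controls. The groups did not overlap, and control replicate 2 was the highest. Lrp4, the agrin receptor of the neuromuscular synapse, had 2730.3, 2819 and 2426 in diabetic pools, against 3214 and 3616 in control pools, a difference of -0.35 (SE 0.12, adjusted p = 0.9995). Lrp4 lay lower and Agrn higher in every diabetic pool, and no link between these was tested. Sdc4, a cell surface heparan sulfate proteoglycan, differed by -0.46 (SE 0.25). Dag1, the dystroglycan gene, differed by 0.04 (SE 0.12) and Itgb1, the common partner subunit of laminin-binding integrins, by -0.03 (SE 0.23); both were picked after their values were seen.

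Of 26 genes of the dystroglycan complex and its glycosylation 16 were tested, 11 with higher and 5 with lower means in diabetic pools, and 0 passed (median 0.04). Sgcb, a sarcoglycan gene, had 3948, 4864 and 4994 in diabetic replicates 1 to 3, against 5414 and 6326 in the controls, a difference of -0.35 (SE 0.13). Its groups did not overlap. Sgce differed by 0.27 (SE 0.15) and the syntrophin gene Sntb2 by -0.26 (SE 0.15), both with overlapping groups. Of 26 genes for collagen folding and crosslinking 18 were tested, 11 with higher and 7 with lower means, and 0 passed (median 0.05). The transglutaminase gene Tgm2 differed by 0.44 (SE 0.29), Colgalt2, a collagen galactosyltransferase gene, by 0.21 (SE 0.15), and the lysyl hydroxylase gene Plod2 by -0.13 (SE 0.14). Of 28 matrix proteases and inhibitors 17 were tested, 10 with higher and 7 with lower means, and 0 passed (median 0.02). Timp3, an inhibitor of metalloproteinases held in Bruch's membrane, had 4304, 4383 and 4880 in diabetic replicates 1 to 3, against 5176 and 7503 in the controls. All 3 diabetic pools lay below both controls, with a difference of -0.45 (SE 0.15, adjusted p = 0.9995). Mmp24 differed by -0.29 (SE 0.20) and the plasminogen activator gene Plat by 0.17 (SE 0.12).

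**Figure D5:**
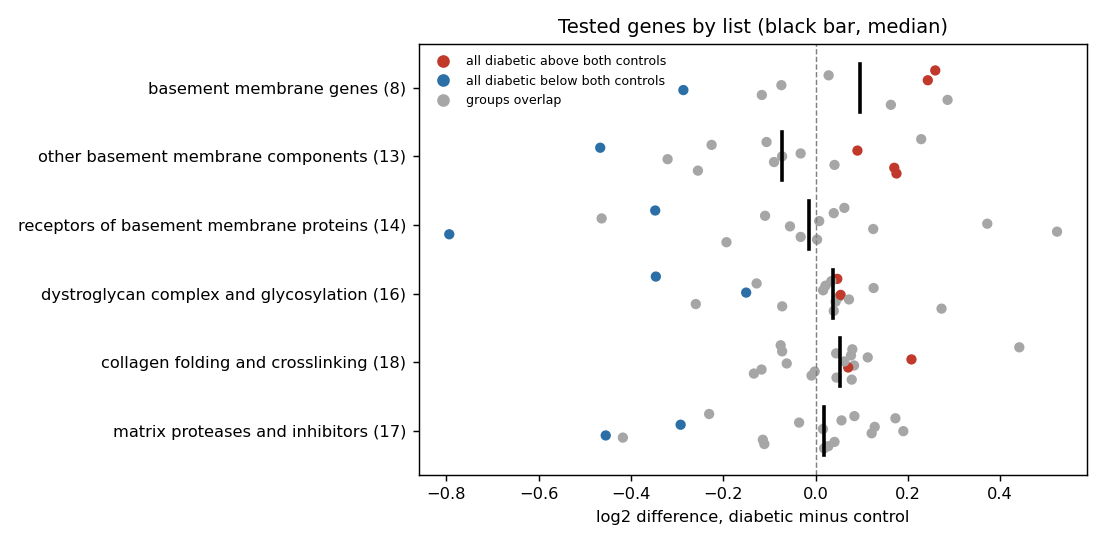
Log2 difference, diabetic minus control, of every tested gene of the basement membrane genes and of 5 lists around them, with the number tested in parentheses and the list median as a black bar. Red points lie above both controls in all diabetic pools, blue points below both and grey points overlap; the medians lie between -0.07 and 0.10.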

How the data were processed

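Signal intensities of 45101 probe sets, as deposited by the authors on a linear scale, were used for all 5 arrays. All 5 columns share a mean of 2500.0 once the lowest and highest 2% are left out, while neither the summarization software nor its background correction is stated in the labels. Groups and replicate numbers came from the sample titles. The platform annotation gave 1 gene symbol to 34945 probe sets, and 932 had several. Symbols were updated by Entrez ID. Coordinates and sequences are RefSeq's, build GRCm38.p6.

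From the intensities, log2(signal + 120.6) was computed and diabetic minus control was fitted with limma 3.58.1 in R 4.3.3 (eBayes with a trend, 3 residual degrees of freedom), after a check on simulated data, with Benjamini-Hochberg adjustment at 0.05 over all tested genes. The number of arrays limits the precision, and no source says that pools were processed independently.

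Named were all 10 genes, the 3 genes of smallest p in each of 5 pathway lists, the 2 brightest of cell type lists where used, and the 5 nearest profiles. The members and lists were chosen with earlier results of these data known. Alternatives covered normalization, pseudocounts, filters, probe sets, variance models, a replicate block and arrays left out. Figures were drawn with matplotlib 3.10.9.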

Additional observations from a re-analysis of the deposited data

Results flagged for a closer look

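Control probe sets outside the gene comparison set diabetic replicate 2 apart. Its 18S ribosomal RNA signals were 3.92, 3.64 and 5.83 times the higher control array at the 3' end, the middle and the 5' end. The beta-actin 3' over 5' ratio was 1.6 times that of the higher control array. The Gapdh ratio differed less, at 0.90 against 0.82 and 0.81 in control replicates 1 and 2. Without this array the difference was 0.23 for Col4a1, 0.31 for Agrn, -0.36 for Lamc1 and -0.28 for Lamb2.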

How the results depend on the processing

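In every alternative run, 0 of the 10 basement membrane genes passed an adjusted p of 0.05. Col4a1, Col4a2, Agrn, Fn1, Lamb2 and Nid1 kept their direction in all alternatives that measured them. The direction turned for Lamc1 (0.0234) and Hspg2 (-0.0666) with the mean over probe sets, and for Col18a1 (-0.0267) and Lamb1 (0.0726) with array weights. It turned for Hspg2 without diabetic replicate 1 (-0.00178), for Col18a1 (-0.0579) and Lamb1 (0.0972) without diabetic replicate 2, and for Lamb1 in 2 further settings, without control replicate 2 (0.24) and with both arrays of high muscle signal left out (0.0296). With single arrays left out Hspg2 lay between -0.00178 and 0.563, Col18a1 between -0.0579 and 0.0942, and Lamb1 between -0.385 and 0.237. The median over tested members, 0.10, was 0.20 among the upper 40% of genes, where 4 members remained, 0.0281 over all probe sets one by one, and 0.0231 to 0.209 with single arrays left out, lowest without diabetic replicate 1 and highest without control replicate 2. Over all genes the count of 0 became 2 with a replicate block, 2 with both arrays of high muscle signal left out, and 0 to 1 with single arrays left out, 1 of them without diabetic replicate 2 and 1 without diabetic replicate 3. The cause was not tested. Same-numbered pools had correlations of deviations of 0.131 and -0.141 across genes. With 2 control pools these are not independent checks and cannot settle whether the numbers mark pairs. The numbers were not taken as pairs in the main fit. The replicate block, in which diabetic replicate 3 has no partner, gave a member median of 0.13. Fits without a control array leave 1 control, assumed to vary like the other pools. Centring on medians moved the median of all genes by 0.0433. Signal over background could not be judged for the 9 dim probe sets, since no detection calls were used here.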
